A study of Homo sapiens with 12 samples.

Results

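Chromatin accessibility was described at the 9 genes through which cells move and sense lactate. These were the proton-coupled monocarboxylate transporters SLC16A1, SLC16A3, SLC16A7 and SLC16A8, their membrane chaperones BSG and EMB, the sodium-coupled transporters SLC5A8 and SLC5A12, and the lactate receptor HCAR1. They were chosen by function, with earlier results of these data known. The choice was made out of 59098 RefSeq genes on chromosomes 1 to 22 and X (GRCh38.p14), of which 19974 were protein-coding. For each gene, the peaks that overlapped its annotated span or the 5 kb on either side were collected from 12 peak lists, 1 per library. Overlapping peaks of different libraries were merged into regions, and 46 of the 178040 regions of the series lay in the 9 windows.

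The libraries came from MIAPaCa2, an established human pancreatic ductal adenocarcinoma line. Parental cells were compared with oxamate-resistant cells, a polyclonal population that had been kept in 10 mM sodium oxamate for 4 weeks. Oxamate is an inhibitor of lactate dehydrogenase, the enzyme that interconverts pyruvate and lactate. Each population received 10 mM oxamate or the vehicle, phosphate-buffered saline, for 24 h before nuclei were taken, and each of the 4 groups had 3 libraries. In ATAC-seq the Tn5 transposase cuts open chromatin, so a peak marks a stretch of accessible DNA. The resistant population was selected from this 1 line, and the labels did not say whether the 3 libraries of a group were separate cultures, so the p-values measure only the spread between these libraries, which may be technical.

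Glycolytic cells must export lactate together with a proton, and the SLC16 transporters carry both in the direction set by their gradients. SLC16A1 (MCT1) is broadly expressed, SLC16A3 (MCT4) is the exporter of highly glycolytic and hypoxic cells, SLC16A7 (MCT2) has a high affinity and serves mainly uptake, and SLC16A8 (MCT3) belongs to the retinal pigment epithelium. BSG (basigin, CD147) brings SLC16A1 and SLC16A3 to the plasma membrane, and EMB (embigin) does the same for SLC16A7. SLC5A8 and SLC5A12 take up lactate with sodium in kidney and gut epithelium, and HCAR1 is a G protein-coupled receptor for extracellular lactate.

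The lists held 46401 to 63259 peaks. Peaks covered 23.7 ± 2.64 Mb of the genome in untreated parental, 17.2 ± 2.97 Mb in oxamate-treated parental, 28.9 ± 4.28 Mb in untreated resistant and 26.6 ± 4.77 Mb in oxamate-treated resistant cells (SD, n = 3 each). The smallest peak width was 67 to 87 bp in the 6 parental and 94 to 124 bp in the 6 resistant libraries. Relative depth averaged 1.55, 2.27, 1.43 and 1.08 in the same order of groups, with the shallowest library at 1. It was the background level inferred from each list divided by the smallest peak width of that list, so it depends on that width. These list properties moved with phenotype and treatment, so differences in bases covered are also given below per Mb covered in the library, for windows and for regions called in 12 libraries. Their part in the differences between groups was not tested. As a check of the cell line, all 5 epithelial and both mesenchymal marker genes had a peak in their window in 12 of 12 libraries, while the leukocyte genes PTPRC, CD3E and LYZ had one in 2, 0 and 8 libraries. The endothelial and fibroblast markers also had window peaks in 12 libraries, so a window peak alone did not separate cell types.

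Peaks recurred at 3 of the 9 genes, the transporters SLC16A1 and SLC16A3 and their chaperone BSG, and were few or absent at the others. In a bulk library a lower signal from fewer open cells and from less opening per cell cannot be told apart. SLC16A1, SLC16A3 and BSG had peaks in 12 of 12 libraries, as did 70.7% of protein-coding genes. SLC16A7 and SLC5A12 had none in any library, as did 9.15% of protein-coding genes. EMB had a peak in the 6 resistant and in 0 of the 6 parental libraries. SLC16A8 had 1 peak in 4 libraries, and SLC5A8 and HCAR1 had 1 peak in 1 library each. Per length, peaks covered 4.09 to 13.7% of the SLC16A3 window, 5.97 to 12.4% of the BSG window and 2.61 to 5.94% of the SLC16A1 window over the 12 libraries, against 0.478 to 1.49% of the EMB window in the resistant libraries. The mean bases covered placed SLC16A3 above 95.2% of protein-coding genes, BSG above 87.9% and SLC16A1 above 87.7%, without regard to gene length. Of the 46 regions, 8 were called in 12 libraries, a class that held 13.6% of all regions, and 21 were called in 1 library only.

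**Figure D1:**
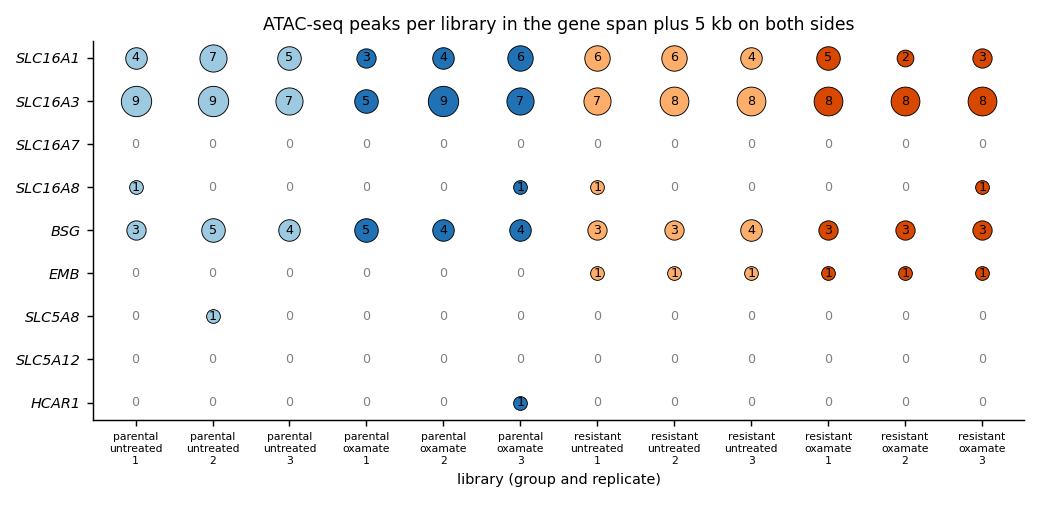
Number of peaks in the window of each gene (rows) in each of the 12 libraries (columns, coloured by group), with larger circles for more peaks. SLC16A1, SLC16A3 and BSG are filled across all 12 columns, EMB is filled in the 6 resistant columns only, and the rows of SLC16A7 and SLC5A12 hold 0 throughout.

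The promoter sequences of the members differed in base composition as well as in accessibility. The RefSeq promoter table (GRCh38.p14) holds promoters for 6 of the 9 genes, and 4 promoters are shown. Of these, 2 overlapped a peak in 12 libraries and 2 overlapped none in any library. Open means such an overlap, over all or part of the promoter. Each is the 250 bases before an annotated start, 5′ to 3′ on the strand of the gene. Capitals mark matches on either strand to ACGTG, the core of a hypoxia response element, to CACGTG, an E-box, and to GGGCGG, a GC box.
SLC16A3, open in 12 libraries: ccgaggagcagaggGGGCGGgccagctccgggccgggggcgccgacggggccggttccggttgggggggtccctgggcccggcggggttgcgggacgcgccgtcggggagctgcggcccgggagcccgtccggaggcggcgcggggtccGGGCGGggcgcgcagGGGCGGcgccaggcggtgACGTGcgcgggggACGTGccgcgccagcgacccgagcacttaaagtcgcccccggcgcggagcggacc
BSG, open in 12 libraries: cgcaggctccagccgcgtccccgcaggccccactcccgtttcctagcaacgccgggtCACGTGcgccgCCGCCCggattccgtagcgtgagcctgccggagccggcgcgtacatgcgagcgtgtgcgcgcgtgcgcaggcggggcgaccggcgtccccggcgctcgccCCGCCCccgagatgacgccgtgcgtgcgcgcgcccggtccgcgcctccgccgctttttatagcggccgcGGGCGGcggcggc
SLC16A7, open in 0 libraries: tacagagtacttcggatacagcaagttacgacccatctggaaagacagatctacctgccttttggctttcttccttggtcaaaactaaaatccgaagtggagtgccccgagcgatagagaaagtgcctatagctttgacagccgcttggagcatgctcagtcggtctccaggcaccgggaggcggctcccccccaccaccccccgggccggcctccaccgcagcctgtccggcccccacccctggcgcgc
SLC5A8, open in 0 libraries: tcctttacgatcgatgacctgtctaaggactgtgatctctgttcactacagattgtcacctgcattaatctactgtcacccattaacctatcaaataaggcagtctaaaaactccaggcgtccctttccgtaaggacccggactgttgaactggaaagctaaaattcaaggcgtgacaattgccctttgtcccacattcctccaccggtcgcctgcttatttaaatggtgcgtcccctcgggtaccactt

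The SLC16A3 promoter (chr17:82228792-82229041, plus strand) was 83.2% G or C and held 2 matches to ACGTG, 68 and 55 bases before the start, and 3 to GGGCGG. The BSG promoter (chr19:572346-572595, plus strand) was 78.4% G or C, with 1 CACGTG match 193 bases before the start, which holds both of its ACGTG matches, 3 matches to GGGCGG and, among other motifs searched, 4 to GCGTG. A match to TATAAA, the TATA box, stood 27 bases before the start. The SLC16A7 promoter (chr12:59595779-59596028, plus strand) was 60.4% G or C and held no match to any of the motifs searched, which were the above, where GCGTG is the other core of a hypoxia response element, and also the CCAAT box, the AP-1 site and the cyclic AMP response element. The SLC5A8 promoter (chr12:101210239-101210488, minus strand) was 47.2% G or C and held 1 match to GCGTG. Among all 34961 promoters of this length, 18.5% held ACGTG, 32.2% held GCGTG, 6.35% held CACGTG, which contains ACGTG, and 42.7% held GGGCGG. The CCAAT box was in 32%, TATAAA in 10.7%, the AP-1 site (TGAGTCA, or on the other strand TGACTCA) in 4.17% and the cyclic AMP response element (TGACGTCA) in 1.65%.

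Of all promoters, 34.9% overlapped a peak in 12 libraries, with a median of 66.4% G or C, and 51.4% overlapped none in any library, with a median of 48.4%. Promoters with at least the G or C share of the SLC16A7 promoter at 60.4% were open in 12 libraries in 57.3% and in 0 libraries in 25.4% of cases. SLC16A3 has 5 annotated promoters, and the other 4, with 64% to 68.4% G or C, overlapped no peak in any library. Of these 4, chr17:82228185-82228434 and chr17:82231982-82232231 held 2 and 1 matches to GGGCGG. The promoters chr17:82234649-82234898 and chr17:82235524-82235773 held 3 and 1 matches to GCGTG. Both BSG promoters were open in 12 libraries. The other of them (chr19:571033-571282) had 56.8% G or C and held no match to any of the motifs searched. The second SLC16A7 promoter (chr12:59689120-59689369) had 35.2% G or C, and that of SLC5A12 (chr11:26722061-26722310) 39.2%. The SLC16A8 promoter (chr22:38084185-38084434) had 64.8%. None of these 3 overlapped a peak in any library, and none held a match to any of the motifs searched.

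SLC16A1 (NCBI Gene 6566, chr1:112911847-112956196), the broadly expressed transporter, overlapped between all 4 groups in bases covered, while the rank of its main peak was lowest in treated parental cells. Peaks covered 2271, 3226 and 2066 bases of its window in untreated parental libraries, 1629, 1963 and 2148 with oxamate, 2893, 2315 and 1848 in untreated resistant libraries and 2527, 1419 and 1943 with oxamate. All 4 groups overlapped. The mean was 2217 bases in parental and 2158 in resistant libraries, a difference of -59.7 (two-sided exact permutation p = 0.84, adjusted p = 1). Treated libraries had on average 498 bases fewer than untreated ones, which did not pass the test (difference -498, exact permutation p = 0.11, adjusted p = 0.521). Without untreated parental replicate 2 it was -322.

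Per Mb covered in the library, SLC16A1 had 90.7 to 127 bases in parental and 66.5 to 90.6 in resistant libraries. On this scale the 2 phenotypes did not overlap, with means of 109 ± 13.7 and 77.2 ± 10.3 (SD, n = 6), and the difference of -31.8 reached the smallest p of the design (exact permutation p = 0.005, adjusted p = 0.134). An unadjusted p under 0.05 on this scale was reached by 15.7% of genes, and resistant libraries lay below parental ones without overlap in 0.603% of genes and above them in 1.22%. The direction of this difference was the same as in bases covered, where it was within the spread between libraries.

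SLC16A1 had 18 regions, of which 2 were called in 12 libraries. The broad one, chr1:112955308-112956793, lay over the higher-coordinate end of the gene, which SLC16A1 shares with the head of its antisense gene SLC16A1-AS1. It was 1239 to 1482 bp wide in every library. Its rank in the list of its own library, ordered by −log10 q with 0 at the top and 100 at the bottom, was 19.5, 18.2 and 20.8 in untreated parental libraries and 34.5, 32.1 and 30 with oxamate. In resistant libraries it was 9.77, 16.7 and 13.9 without and 13.3, 18.2 and 16.7 with oxamate. The 3 treated parental libraries thus ranked this peak lower than each of the other 9 libraries, as they did 5.86% of the regions called in 12 libraries. All 6 resistant libraries ranked it higher than each of the 6 parental ones, although the nearest values of the 2 phenotypes were both 18.2. The share of regions whose ranks separate the phenotypes in this way was not counted. The fold over background gave the same order of phenotypes only in part, with 3.92 to 4.5 in treated parental, 5.05 to 5.55 in untreated parental and 5.32 to 6.05 in resistant libraries.

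The ranks come from lists of unequal length and depth and were not recomputed for single regions in lists of equal length. They were tested over the 24148 regions called in 12 libraries, a test added after the data had been seen. The rank of the SLC16A1 end peak was 14.8 ± 3.07 in resistant and 25.8 ± 7.14 in parental libraries (SD, n = 6), a difference of -11.1 (exact permutation p = 0.005, adjusted p = 0.0731). An unadjusted p under 0.05 was reached by 24% of these regions and by 1 of the 8 in the member windows. Treated and untreated libraries differed by 7.64 (exact permutation p = 0.025, adjusted p = 0.5), where 8.96% of regions had such an unadjusted p. Bases covered differed by 51.7 between phenotypes (exact permutation p = 0.265, adjusted p = 0.348). Per Mb covered both directions turned. The phenotype difference was -17 (exact permutation p = 0.01, adjusted p = 0.112), and the treatment difference went from -25.7 bases to 12.1 per Mb (exact permutation p = 0.05, adjusted p = 0.528). Whether the change with oxamate differed between phenotypes was not tested for this region.

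The other constitutive SLC16A1 region, chr1:112957386-112957807, lay 1190 bp beyond the same end, inside SLC16A1-AS1. It was narrow, 166 to 422 bp, and strong, with a rank of 5.3 to 16.7 and a fold of 4.76 to 8.45. Its ranks in parental and resistant libraries overlapped (difference 3.81, exact permutation p = 0.08, adjusted p = 0.254). Another region inside the gene, chr1:112925192-112925490, near the pseudogene AKR7A2P1, was called in 3 of 3 untreated parental libraries, 0 of 3 with oxamate, 2 of 3 untreated resistant libraries and 1 of 3 with oxamate. A loss from 3 to 0 between both parental groups was seen in 0.921% of all regions. By phenotype the region was called in 3 of 6 and 3 of 6 libraries. Of the 18 SLC16A1 regions, 8 were called in 1 library only.

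SLC16A3 (NCBI Gene 9123, chr17:82217934-82240086), the exporter of glycolytic cells, had the highest mean of bases covered, although per window length BSG was covered more in several libraries. Peaks covered 3343, 3424 and 1624 bases in untreated parental libraries, 1316, 2233 and 2708 with oxamate, 3379, 3518 and 4275 in untreated resistant libraries and 4395, 2715 and 3194 with oxamate. The resistant values lay mostly above the parental ones, and with oxamate the 2 phenotypes did not overlap, by a margin of few bases, 2715 against 2708. Between the treated groups 34.9% of genes were higher in resistant cells without overlap. The mean was 3579 in resistant and 2441 in parental libraries, a difference of 1138 bases (exact permutation p = 0.015, adjusted p = 0.0886). Per Mb covered the means were 130 ± 20.1 and 117 ± 26.4 (SD, n = 6), a difference of 12.6 that was within the spread between libraries (exact permutation p = 0.405, adjusted p = 0.802). With the window cut to 1 kb on either side the difference fell to 137 bases (exact permutation p = 0.6, adjusted p = 0.828). This narrower window leaves out, among others, the region in CCDC57 and those in CSNK1D that lie wholly beyond the gene span. It also cuts off part of the region chr17:82216501-82217302 below the gene.

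**Figure D2:**
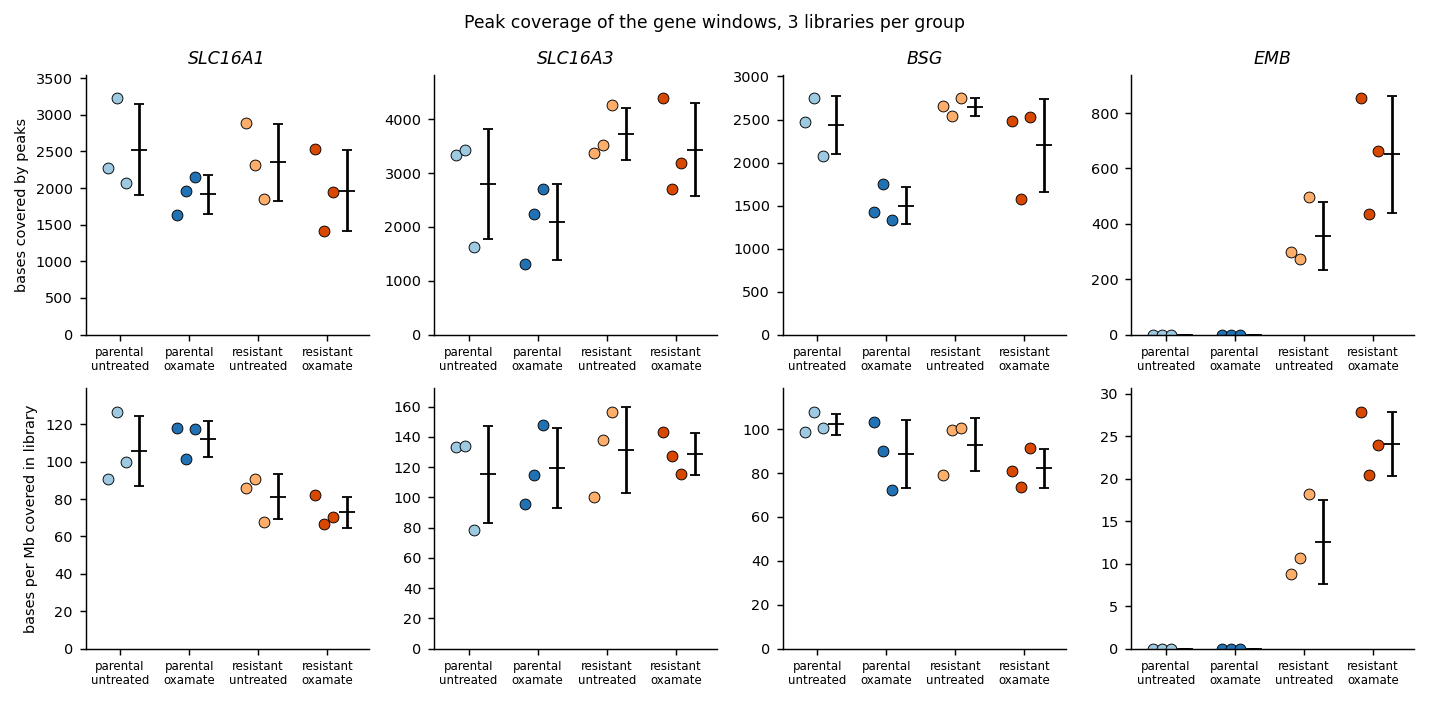
Bases of the window covered by peaks (top row) and the same per Mb covered in the library (bottom row) for SLC16A1, SLC16A3, BSG and EMB, with 1 point per library and bars for the mean and SD of 3 libraries. The EMB points are at 0 in all 6 parental libraries, and the SLC16A1 points of the resistant libraries lie below those of the parental ones in the bottom row only.

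Of the annotated SLC16A3 starts, the one with the promoter shown above lay in a peak in every library. The region chr17:82228902-82229370, inside the gene span, overlapped this promoter in 12 of 12 libraries. It held only the part of the promoter next to the start, and the GGGCGG match furthest from the start lay outside it. It covered 360, 321 and 121 bases in untreated parental, 139, 110 and 97 with oxamate, 349, 407 and 401 in untreated resistant and 457, 218 and 380 in oxamate-treated resistant libraries. Treated parental libraries lay below every resistant library, and untreated parental libraries overlapped each of the other 3 groups. The share of regions with this order was not counted. Between the treated groups alone, 34.9% of gene windows were higher in resistant cells without overlap. The mean of this region was 369 ± 81.9 in resistant and 191 ± 117 in parental libraries (SD, n = 6; difference 177, exact permutation p = 0.01, adjusted p = 0.0556). Scaled per Mb covered, it was 4.32 (exact permutation p = 0.05, adjusted p = 0.214). Its rank was 28.5, 35.7 and 28.7 in untreated parental libraries and 64.4, 50.9 and 43.9 with oxamate, and 27.9 to 42.4 in the 6 resistant libraries. The treated parental libraries ranked it lower than each of the other 9, as they did 5.86% of the regions called in 12 libraries. By phenotype the ranks did not pass the test (difference -6.63, exact permutation p = 0.28, adjusted p = 0.517), nor by treatment (difference 10.6, exact permutation p = 0.075, adjusted p = 0.521).

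**Figure D3:**
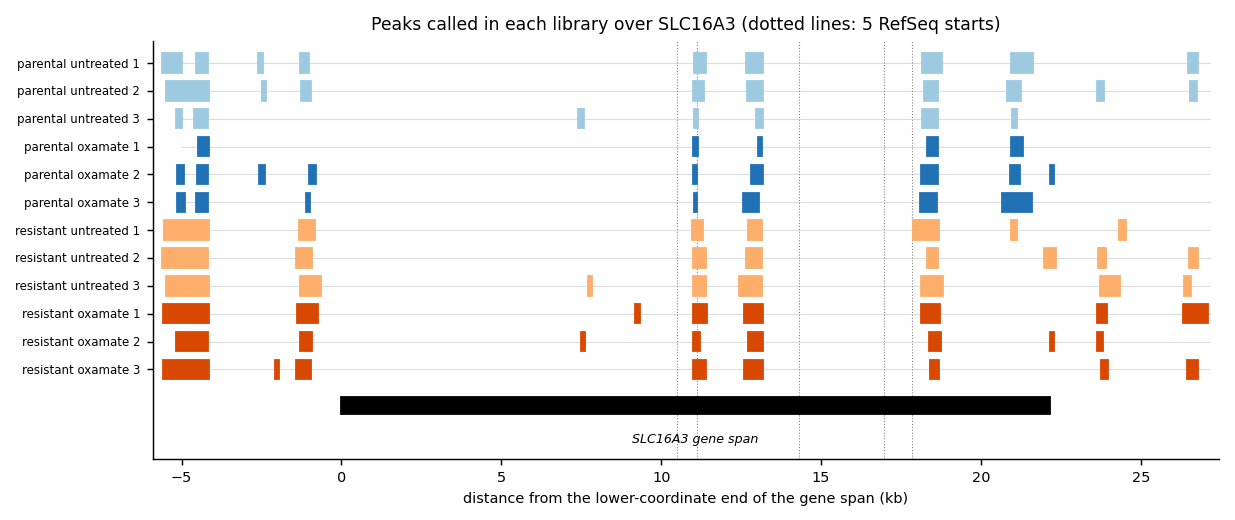
Peaks of each library (rows, coloured by group) over SLC16A3, by distance in kb from the lower-coordinate end of the gene span (black bar), with dotted lines at the 5 RefSeq starts. The peak over the second of these starts is present in all 12 rows and 97 to 139 bases wide in the 3 oxamate-treated parental rows, and the calls at the higher-coordinate end differ between phenotypes.

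At the higher-coordinate end of SLC16A3, neighbouring regions were called in opposite phenotypes. The region chr17:82238592-82239556, where SLC16A3 and CSNK1D, a casein kinase gene, overlap, was called in 6 of 6 parental and 1 of 6 resistant libraries. Its neighbour chr17:82241553-82242480, inside CSNK1D, was called in 1 of 6 parental and 6 of 6 resistant libraries. With oxamate these were 3 of 3 against 0 of 3 and 0 of 3 against 3 of 3, patterns found in 0.433% and 1.41% of all regions. Each gave a two-sided Fisher's exact p of 0.0152 over 6 against 6 libraries (adjusted p = 0.133). An unadjusted p under 0.05 was reached by 8.71% of the 9507 tested regions with more resistant and by 2.7% with more parental libraries. The first region had a fold over background of 2.66 to 3.96 in parental libraries, and the second had 2.06 to 2.79 in resistant libraries.

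Below the gene, chr17:82216501-82217302, 632 bp from the lower-coordinate end, was called in 4 of 6 parental and 6 of 6 resistant libraries and covered 0 to 308 bases in the former and 358 to 650 in the latter. It overlapped no annotated gene, and its bases covered were neither tested nor scaled per Mb covered. The share of regions that separate the phenotypes in this way was not counted. Of the gene windows tested, 3.62% were covered more in every resistant than in every parental library. The region chr17:82212331-82213794, over the promoter of the neighbouring gene CCDC57, was called in 12 libraries and covered 553 to 1351 bases in parental and 991 to 1453 in resistant libraries (difference 534, exact permutation p = 0.01, adjusted p = 0.0556; per Mb covered 9.59, exact permutation p = 0.05, adjusted p = 0.214). These bases are of the whole region, part of which lies outside the window. This region gave SLC16A3 its best rank in most libraries, 10 to 40.5, so the best rank of the window is mostly that of the CCDC57 promoter. Inside the gene, chr17:82230366-82231122 and chr17:82235815-82236736, the latter over the microRNA gene MIR6787, were called in 12 libraries. Their bases covered did not pass the test by phenotype (differences 174 and 10.7, exact permutation p = 0.065 and 0.915, adjusted p = 0.134 and 0.936). Scaled per Mb covered, they were 2.19 and -6.66, so that of the latter turned (exact permutation p = 0.525 and 0.045, adjusted p = 0.738 and 0.203). The latter as merged began at 82235815, just after another annotated SLC16A3 start, whose promoter ends at 82235773. That edge came from untreated resistant replicate 1, and in the other libraries the peak began at 82236022 to 82236335. The last region, chr17:82244239-82245024 in CSNK1D, was called in 2 of 6 parental and 4 of 6 resistant libraries (Fisher's exact p = 0.567, adjusted p = 0.982).

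BSG (NCBI Gene 682, chr19:571283-583493), the chaperone of SLC16A1 and SLC16A3, had fewer covered bases with oxamate in both phenotypes. Peaks covered 2471, 2748 and 2081 bases in untreated parental libraries and 1425, 1748 and 1327 with oxamate. In resistant libraries they covered 2661, 2541 and 2747 bases without and 2488, 1577 and 2533 with oxamate. Treated and untreated libraries did not overlap in either phenotype, in the resistant cells by 2533 against 2541. The difference of -692 bases reached the smallest p of the design (exact permutation p = 0.005, adjusted p = 0.396), as did 1.23% of genes. Between parental groups, 24.4% of genes were lower with oxamate without overlap, and between resistant groups 3.78%. Per Mb covered the treated libraries overlapped the untreated ones in both phenotypes, with a difference of -12.2 (exact permutation p = 0.065, adjusted p = 0.814).

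Resistant and parental cells did not differ in BSG beyond the spread between libraries. The means were 2425 and 1967 bases (difference 458, exact permutation p = 0.065, adjusted p = 0.187). Per Mb covered the direction turned, with 87.6 ± 11.2 in resistant and 95.5 ± 12.7 in parental libraries (SD, n = 6; difference -7.93, exact permutation p = 0.265, adjusted p = 0.67). With peaks below a −log10 q of 3 left out, the difference was 867 bases and passed the test (exact permutation p = 0.005, adjusted p = 0.0362), as did 22.1% of the 29770 genes tested on those lists.

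The main BSG region, chr19:570911-572782, lay over the lower-coordinate end of the gene and its antisense gene BSG-AS1 and held both BSG promoters. It covered 1677, 1766 and 1403 bases in untreated parental, 809, 1302 and 767 with oxamate, 1759, 1655 and 1711 in untreated resistant and 1716, 1117 and 1642 in oxamate-treated resistant libraries. Parental libraries with and without oxamate did not overlap, while in resistant cells 1 treated library, replicate 2, lay well below the rest. The share of regions lower in treated parental libraries in this way was not counted, and 24.4% of gene windows were. In most libraries the BSG region was 1 unbroken peak, but in the treated parental libraries it was split into 3, 2 and 2 peaks. Of the other libraries, replicate 3 of untreated parental and replicate 2 of oxamate-treated resistant cells had it in 2 peaks. How many other regions were split in the treated parental lists was not counted. The median peak width was 205 to 229 bp in those lists, 226 to 298 bp in untreated parental and 318 to 428 bp in resistant lists. Over the constitutive regions the difference with treatment was -436 bases (exact permutation p = 0.015, adjusted p = 0.301), where 13.7% of regions had an unadjusted p under 0.05. Per Mb covered it was -8.05 (exact permutation p = 0.07, adjusted p = 0.528). Its rank, 5.7 to 20.1 over the 12 libraries, did not follow (difference -0.523, exact permutation p = 0.82, adjusted p = 0.939).

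Beyond the gene, chr19:584314-584759, 821 bp past the higher-coordinate end, was called in 5 of 6 parental and 5 of 6 resistant libraries. It covered 427 to 441 bases in untreated resistant, 214 to 294 in untreated parental, and 0 to 146 and 0 to 416 bases in the treated parental and resistant libraries. At the edge of the window, chr19:587975-589683 overlapped the promoter of HCN2, an ion channel gene. It covered 1134 ± 279 bases in resistant and 690 ± 181 in parental libraries (SD, n = 6; difference 444, exact permutation p = 0.005, adjusted p = 0.0453). These bases are of the whole region, which runs past the end of the window at 588493. It was the 1 region of the 8 overlapping member windows to pass, as did 11% of constitutive regions in this direction. It did not pass per Mb covered (difference 7.64, exact permutation p = 0.18, adjusted p = 0.417). An unadjusted p under 0.05 was reached by 3 of the 8 regions and by 41.7% of all constitutive regions.

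**Figure D4:**
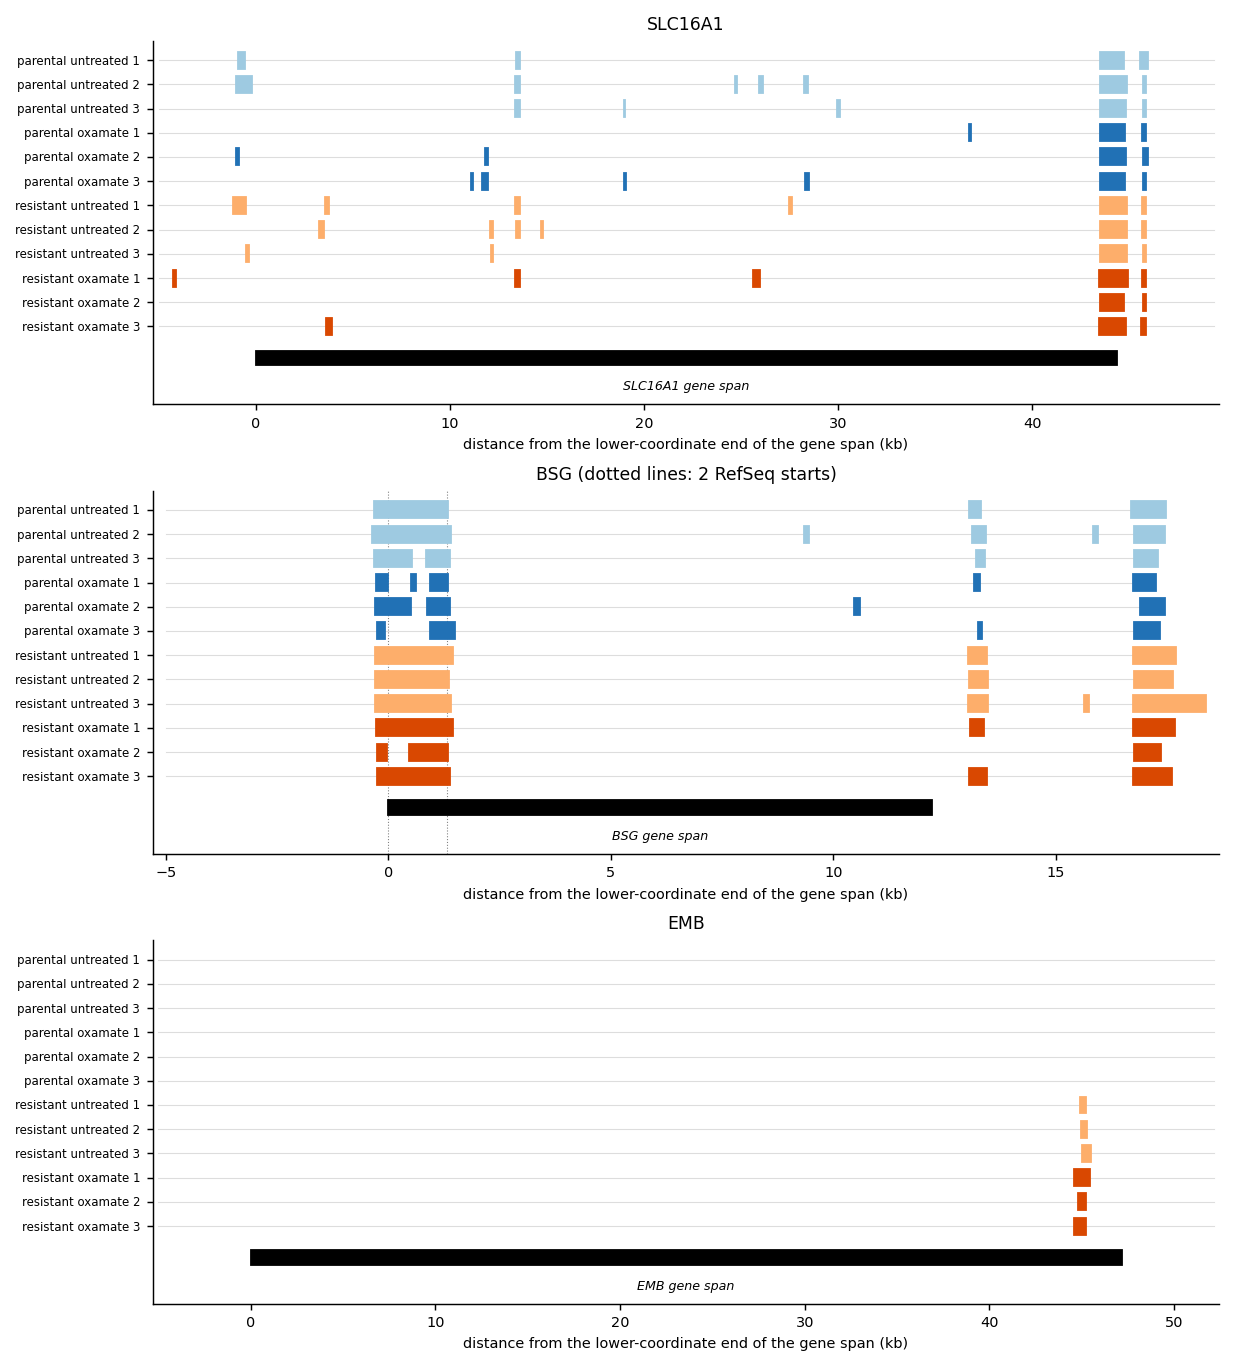
Peaks of each library (rows, coloured by group) over SLC16A1, BSG and EMB, by distance in kb from the lower-coordinate end of each gene span (black bars), with dotted lines at the 2 RefSeq starts of BSG. The peaks at the higher-coordinate end of SLC16A1 and around the BSG starts recur in all 12 rows. The latter are in 2 or 3 pieces in the oxamate-treated parental rows, and in 2 in untreated parental replicate 3 and oxamate-treated resistant replicate 2. The EMB peak appears in the 6 resistant rows only.

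EMB (NCBI Gene 133418, chr5:50396192-50443345), the chaperone of SLC16A7, had a peak in resistant cells only. The peak covered 297, 273 and 497 bases in untreated and 854, 435 and 663 in oxamate-treated resistant libraries, and 0 bases in each of the 6 parental ones. The phenotypes therefore did not overlap. It was the only peak in the window, chr5:50440759-50441678, inside the gene and 1667 bp from its higher-coordinate end, and neither gene end lay in a peak in any library. The difference of 503 bases reached the smallest p of the design (exact permutation p = 0.005, adjusted p = 0.0613), as did 8.16% of genes. The gene entered the tested set only through its resistant libraries, so these values describe presence against absence and are no further support for it. By presence, 6 of 6 against 0 of 6 libraries gave a two-sided Fisher's exact p of 0.00216 (adjusted p = 0.0807), a pattern found in 2.2% of the tested regions.

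The EMB peak was weak in every library that had it. Its fold over background was 3.3 to 3.93, its −log10 q 1.7 to 2.61, and its rank 62.3 to 85. With the same weak peaks left out, EMB had no peak in any library. With every list limited to its 45748 top-ranked peaks, the number of the shortest list, it was kept in 4 of the 6 resistant libraries and lost in replicate 1 of both resistant groups. The difference was then 311 bases (exact permutation p = 0.08, adjusted p = 0.177). Per Mb covered the resistant libraries had 8.82 to 27.8 bases, and those with oxamate lay above those without, at 20.4 to 27.8 against 8.82 to 18.2. On this scale 3.23% of genes were higher in treated than in untreated resistant libraries without overlap. In bases covered both resistant groups overlapped (treatment difference 148, exact permutation p = 0.2, adjusted p = 0.609). Chromosome 5 held 5 ± 0.0643% of the peaks in resistant and 4.99 ± 0.221% in parental libraries (SD, n = 6).

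The remaining 5 genes had few peaks or none. SLC16A7 (NCBI Gene 9194, chr12:59596029-59789841), the high-affinity transporter and partner of EMB, had no peak in its window of 203813 bp in any library, nor did SLC5A12 (NCBI Gene 159963, chr11:26667020-26723389) in 66370 bp. A peak list shows only what passed the caller at that depth, so this does not show that the chromatin was closed. SLC16A8 (NCBI Gene 23539, chr22:38078137-38084184) had 343 covered bases in untreated parental replicate 1, 360 in treated parental replicate 3, 272 in untreated resistant replicate 1 and 459 in treated resistant replicate 3. These 4 peaks lay at 4 different places, 2 of them in the neighbouring gene BAIAP2L2, and no place was called in more than 1 library. SLC5A8 (NCBI Gene 160728, chr12:101155493-101210238) had 1 peak of 151 bases inside the gene in untreated parental replicate 2. HCAR1 (NCBI Gene 27198, chr12:122726076-122730844) had 1 peak of 94 bases, 3813 bp below the gene, in treated parental replicate 3. These 6 peaks ranked between 73.5 and 97 in their lists, and none had a −log10 q of 3 or more.

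**Figure D5:**
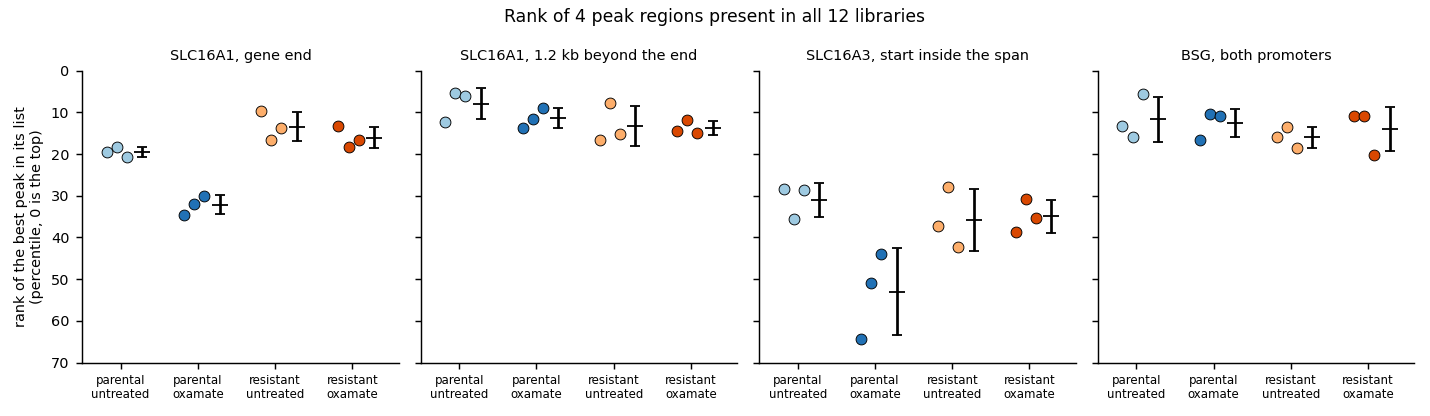
Rank of the best peak in its own list (percentile by −log10 q, 0 at the top of the axis) for 4 regions called in all 12 libraries, with 1 point per library and bars for the mean and SD of 3 libraries. The oxamate-treated parental libraries lie lowest at the SLC16A1 gene end, at 30 to 34.5, and at the SLC16A3 start, at 43.9 to 64.4, and overlap the other groups at the remaining 2 regions.

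Over the whole set, with the full peak lists and all tested genes, no member passed an adjusted p of 0.05 in the tests of the window, and neither did any other gene. With the weak peaks left out BSG passed by phenotype, as described above, and among genes with a peak in at least 6 libraries EMB did (exact permutation, adjusted p = 0.0427), a filter that it passed only through the resistant libraries. The tests covered 41141 genes with a peak in their window in at least 1 library, 7 of them members. For bases covered by phenotype 0% of genes passed after adjustment, while an unadjusted p under 0.05 was reached by 29.8% of genes (12243) and by 2 of 7 members, SLC16A3 and EMB. By treatment 0% passed, with an unadjusted p under 0.05 in 10.2% of genes (4211) and in 1 of 7 members, BSG. For the difference of the treatment effects between phenotypes, whose null is no effect in either, 0% passed, with 3.49% of genes (1437) and 0 of 7 members at an unadjusted p under 0.05. For the best rank in the window by phenotype 0% passed, with 16.5% of genes (6784) and 1 of 7 members under 0.05 unadjusted, EMB, whose parental libraries had no peak and were set to rank 100. By treatment 0% passed, with 6.7% of genes (2758) and 0 of 7 members. For region presence, 0% of the 9507 regions passed after adjustment.

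Counts of 1 or 2 of 7 members did not stand apart from these shares. The smallest p that 400 assignments allow is 0.005, and 4115 genes would have to reach it for any adjusted p to fall under 0.05, which for bases covered by phenotype 3358 did. Between untreated groups, 13.2% of genes were higher in resistant cells without overlap, among members EMB. Between treated groups 34.9% were, among members SLC16A3 and EMB. Over all 6 against 6 libraries 3.62% were, among members EMB. The median difference by phenotype was 4.67 bases over the 7 members tested and 139 over all genes, and by treatment -25.2 and -79.8. EMB was tested only because of the group where it was high, so the member counts that include it and these medians describe the set and no more.

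Other genes that convert lactate and handle the protons exported with it were taken from 4 lists with 29 genes. Of these, 20 had a peak in 12 libraries, the receptors HCAR2 and HCAR3 had one in 0, and none of the 27 tested passed by phenotype or treatment. Among the 10 other SLC16 family genes, 8 were open in 12 libraries, and for none did the phenotypes fail to overlap. NPTN, the remaining paralog of BSG and EMB, had 790 ± 211 covered bases in parental and 1049 ± 95.3 in resistant libraries (SD, n = 6; exact permutation p = 0.025, adjusted p = 0.109). Among the 6 genes of lactate and pyruvate conversion and import, MPC2, a subunit of the mitochondrial pyruvate carrier, was higher in every resistant library, with 1766 to 2949 against 1130 to 1714 bases (exact permutation p = 0.005, adjusted p = 0.0613). Among the 10 genes of proton handling and sensing, 2 did not overlap by phenotype, both higher in resistant cells, beside the 3.62% of all genes that did so. The carbonic anhydrase gene CA12 had 531 to 943 against 0 to 529 bases, and the proton-sensing receptor gene GPR132 had 451 to 1767 against 191 to 365. Each had an exact permutation p of 0.005 and an adjusted p of 0.0613. The hypoxia-induced carbonic anhydrase gene CA9 was covered in 0 of 6 parental and 5 of 6 resistant libraries. Resistant libraries had 461 ± 422 bases (SD, n = 6, exact permutation p = 0.02, adjusted p = 0.0976). An unadjusted p under 0.05 was reached by 29.8% of genes in bases covered and by 15.7% per Mb covered. CA9 entered the tested set only through its resistant libraries, so its values here and per Mb covered describe presence against absence. Per Mb covered none of the 27 genes tested separated the phenotypes. The differences were then -0.0285 for NPTN, 5.48 for MPC2, 11.1 for CA12, 17.8 for GPR132 and 16.8 for CA9 (exact permutation p = 0.995, 0.295, 0.03, 0.005 and 0.02, adjusted p = 1, 0.712, 0.243, 0.134 and 0.207).

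As a description, the protein-coding genes whose coverage per Mb varied most like each open member over the 12 libraries were found by Pearson correlation. For SLC16A1 they were NUF2 (r = 0.907), CNOT1 (0.889) and PPP3CA (0.885). For SLC16A3 they were PTPN20 (0.875), PRPH (0.872) and PIGA (0.826). For BSG they were PYCR3 (0.888), LMTK3 (0.835) and QPCTL (0.824). Between 15099 and 15101 genes were compared with each member, and the points share their libraries and depths.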

How the data were processed

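ATAC-seq was analysed in 12 libraries of MIAPaCa2 cells, 3 in each of 4 groups named in the sample titles. Reads were aligned to hg38 by the authors with Bowtie2 2.1.0. They dropped duplicates, reads that mapped to several places and mitochondrial reads, then ran MACS2 on read pairs in broad mode, library by library; the MACS2 threshold is not given in the sources used here. The deposited lists give for each peak a score, a fold over background (a ratio) and the −log10 p and −log10 q that the authors' caller wrote. No read counts were used, so depth is known only in relative terms and no count test was run.

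Here 677901 peaks were read and the 0.892% outside chromosomes 1 to 22 and X were left out. Peaks of the 12 libraries that shared at least 1 bp were merged into regions. For each gene the bases of its span plus 5 kb covered by peaks, and the best rank by −log10 q (100 where there was no peak), were compared by two-sided exact permutation tests that kept the other factor fixed, over 400 assignments with a smallest p of 0.005. P-values were adjusted by Benjamini-Hochberg over 41141 genes. Groups of 3 against 3 cannot reach a p below 0.1 and were compared by overlap. Regions called in 5 to 7 libraries were tested by two-sided Fisher's exact test. Promoters were 250 bases. Regions called in 6 or more libraries were named. The scripts were tested on simulated data. Python 3.11.15, numpy 2.4.6, pandas 2.3.3, scipy 1.17.1 and matplotlib 3.10.9 were used. The members and lists were chosen with earlier results of these data known. Alternatives were stricter lists, lists of equal length, coverage per Mb, a 1 kb window, a filter on low presence, blocking on replicate number and dropping each library in turn.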

Additional observations from a re-analysis of the deposited data

How the results depend on the processing

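No gene passed the adjusted threshold in any gene-level test as reported, and this held without each library in turn (0 to 0 genes) and per Mb covered. By phenotype, bases covered gave 6583 of 29770 genes past it with peaks below a −log10 q of 3 left out (of the members BSG), 3946 with lists of equal length (no member), 3358 among genes with a peak in at least 6 libraries (EMB, which passed that filter only through the resistant libraries) and 2668 over regions called in 12 libraries, an alternative chosen after seeing the data. With the weak peaks left out, best rank by phenotype gave 3710 genes and region presence 307 regions, none of them at a member. The cause was not tested. The adjusted p of EMB by phenotype ranged from 0.0427 to 0.197 over its alternatives, that of SLC16A3 from 0.0618 to 0.828 and that of BSG from 0.0362 to 0.67.

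Several directions turned. With the weak peaks left out, the SLC16A1 phenotype difference became 84.7 bases, the rank differences by phenotype became -2.15 for SLC16A1, -1.15 for SLC16A3 and -1.85 for BSG, and that by treatment became 1.57 for BSG. Per Mb covered, the phenotype difference of BSG became -7.93, the treatment difference of SLC16A3 became 0.626, and the difference of treatment effects became -14.9 for SLC16A1 and -6.94 for SLC16A3. Single regions also turned, the phenotype difference to -17 at the SLC16A1 end, to -6.66 at the MIR6787 region and to -4.09 at the BSG promoters. The difference of treatment effects was -81 for SLC16A1 and -24.7 for SLC16A3 with lists of equal length, and -264 for SLC16A3 with the 1 kb window. Without 1 library each, the SLC16A1 phenotype difference ran from -201 to 117 (117 without untreated parental replicate 2), its treatment difference from -639 to -322, the difference of treatment effects from -134 to 491 for SLC16A1 and from -58.2 to 1009 for SLC16A3, and the rank difference by treatment from -2.06 to 0.539 for BSG and from -2.49 to 3.16 for EMB. The single regions called in 12 libraries were not refitted without each library.

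Same-numbered libraries correlated at -0.178 to 0.249 over 12 pairs and others at -0.278 to 0.179, and 10 of 24 comparisons were best with the own number. Between the resistant groups same-numbered libraries correlated at 0.221, 0.249 and 0.0283, and others at -0.278 to 0.112. Between the untreated groups they were at -0.178 to 0.0392, and others at -0.139 to 0.179. The labels do not say whether equal numbers pair libraries, and these correlations cannot decide it. With a replicate block, 0 genes passed, 6526 had an unadjusted p under 0.05 by phenotype, and EMB had an adjusted p of 0.197 (exact permutation). A peak list shows only what passed the caller at the depth of its library.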
